A study of Mus musculus with 9 samples.

Results

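A set of 9 genes of matrix breakdown and its control was followed through muscle of young mice, aged mice and aged mice given the compound GW8510. They are 3 matrix metalloproteinases (Mmp2, Mmp3 and Mmp14), 2 members of the ADAMTS proteinases (Adamts1 and Adamts5) and the 4 tissue inhibitors of metalloproteinases (Timp1, Timp2, Timp3 and Timp4). They were chosen by gene symbol, and all 9 were found among the 55536 genes of the deposited tables. RNA was taken from muscle of male ICR mice, an outbred stock, in 9 libraries. The young vehicle group held 3 libraries from mice aged 2 months (numbered 2, 3 and 4 in their titles), and the aged vehicle group held 3 libraries from mice aged 18 months (1, 3 and 4). The aged GW8510 group held 3 libraries (1, 3 and 4) from 18-month mice injected intraperitoneally with GW8510, a benzenesulfonamide per the series title, at 2 mg/kg on each of 14 days. No genetic change was named for any group, the carrier of GW8510 was sodium carboxymethylcellulose, and the labels do not say which muscle was taken or whether each library is a separate animal. The p-values therefore measure the spread between libraries, which may be technical.

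Matrix metalloproteinases are zinc-dependent enzymes that cut collagens and other proteins of the extracellular matrix. MMP2 is a secreted gelatinase, MMP14 is anchored in the cell membrane and activates the MMP2 precursor with TIMP2 bound as an adaptor, and MMP3 is a secreted stromelysin induced in injured and inflamed tissue. ADAMTS1 and ADAMTS5 are secreted proteinases that cleave proteoglycans such as versican and aggrecan, and TIMPs bind the active site of metalloproteinases and block it. Many of these genes are expressed by fibroblasts and other cells between the muscle fibres, where the balance of enzyme and inhibitor governs matrix turnover.

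The 9 genes lie on 8 chromosomes. On GRCm38 (GENCODE M21), Adamts1 spans chr16:85793827-85803113 and Adamts5 chr16:85856173-85901828, both on the minus strand, with 53059 bases and no coding gene between them. Mmp2 lies at chr8:92827291-92853420, Mmp3 at chr9:7445822-7455975 and Mmp14 at chr14:54431612-54445364, all on the plus strand. Timp2 lies at chr11:118301069-118355740 on the minus strand. Each of the other TIMP genes lies inside a synapsin gene that is read from the opposite strand. Timp1 (chrX:20870166-20874735, plus strand) lies in Syn1 and shares no exon base with it, Timp3 (chr10:86300372-86349506, plus strand) shares 1733 exon bases with Syn3, and Timp4 (chr6:115241892-115252205, minus strand) shares 90 with Syn2. The sources used here do not give whether counting used strand, so reads in the shared exon bases cannot be assigned to a strand with certainty. The synapsins held few counts in any library, 0 to 6 for Syn1, 7 to 26 for Syn2 and 5 to 27 for Syn3. Cep295nl, inside Timp2, held 0 to 2, and Gm17482, which spans Timp4, held 0.

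Promoter sequence was examined because Adamts1 and Timp4, described further on, differed in opposite directions between young muscle and both aged groups together. Neither passed the test for aged vehicle alone. A further reason was that 2 of 6 tested subunits of the AP-1 transcription factor fell for both aged groups together, against 2.33% of all genes as lower. RefSeq sequence of the 250 bases before the transcription start (assembly GRCm38.p6) was matched for 7 of the 9 genes; Mmp2 and Adamts5 were not among them. The 2 genes that passed the test for both aged groups together are shown with Mmp14 and Mmp3. Capitals mark matches on either strand to TGANTCA (the AP-1 site), TATAAA (the TATA element) or GGGCGG (the GC box), and no 2 matches share a base.
Adamts1 (chr16:85803114-85803363, minus strand): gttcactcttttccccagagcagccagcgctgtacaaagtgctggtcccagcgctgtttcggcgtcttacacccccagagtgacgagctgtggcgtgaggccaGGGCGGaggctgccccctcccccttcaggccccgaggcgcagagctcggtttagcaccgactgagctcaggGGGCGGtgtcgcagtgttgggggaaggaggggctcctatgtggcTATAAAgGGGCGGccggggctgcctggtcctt
Timp4 (chr6:115252206-115252455, minus strand): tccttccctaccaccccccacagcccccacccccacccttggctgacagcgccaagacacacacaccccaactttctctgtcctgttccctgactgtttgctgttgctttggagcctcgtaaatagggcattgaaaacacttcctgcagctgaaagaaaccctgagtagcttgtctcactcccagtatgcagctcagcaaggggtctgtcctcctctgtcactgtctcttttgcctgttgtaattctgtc
Mmp14 (chr14:54431348-54431597, plus strand): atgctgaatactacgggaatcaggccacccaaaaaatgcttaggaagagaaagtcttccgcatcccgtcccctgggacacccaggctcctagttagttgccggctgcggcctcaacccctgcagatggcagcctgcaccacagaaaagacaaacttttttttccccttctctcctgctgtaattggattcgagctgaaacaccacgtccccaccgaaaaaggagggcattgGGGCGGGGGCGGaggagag
Mmp3 (chr9:7445572-7445821, plus strand): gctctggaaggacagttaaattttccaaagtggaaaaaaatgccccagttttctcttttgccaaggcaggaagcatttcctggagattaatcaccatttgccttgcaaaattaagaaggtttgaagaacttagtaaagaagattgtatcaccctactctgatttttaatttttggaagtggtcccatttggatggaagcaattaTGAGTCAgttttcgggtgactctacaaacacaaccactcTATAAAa

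The Adamts1 window held a TATA element at positions -32 to -27 before the start and 3 GC boxes, 1 of them at -25 to -20. The Timp4 window held none of the 3 motifs. Mmp14 held 2 adjoining GC boxes at -19 to -14 and -13 to -8 and no TATA element. Mmp3 held the sequence TGAGTCA at -46 to -40, the single AP-1 match among the 7 windows. It also held the letters TATAAA at -7 to -2, nearer the start than those of Adamts1. Timp1, Timp2 and Timp3 held 1 GC box each. Over 32851 windows of the same length, 6.75% held the AP-1 site, 12.4% the TATA element and 32.7% the GC box. GC content was 65.6% for Adamts1, 55.2% for Mmp14, 53.6% for Timp4 and 37.6% for Mmp3. A match is a description of the sequence and not evidence of binding.

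Library totals ran from 21718930 to 27437937 counts, and 14384 genes passed the filter on low counts, among them 8 of the 9 genes; Mmp3 did not pass. Levels are given as CPM (expected counts scaled to a common library size with TMM factors), with group values as mean ± SD (n = 3), and comparisons between genes use the authors' TPM, which corrects for transcript length. A floor of 3 counts was worth 0.103 to 0.136 CPM, depending on the library, and covers counting error only. Skeletal muscle fibre markers were abundant in every library, with a sum over 9 genes of 98500 to 163000 CPM. The 11 fibroblast markers summed to 886 to 2320 CPM in young, 215 to 931 in aged vehicle and 580 to 1170 in aged GW8510 libraries, and none of the 11 was at 0. Aged vehicle 4 stood apart, with the lowest fibre, fibroblast, endothelial, smooth muscle, Schwann cell and tendon marker sums of the 9 libraries and the highest satellite cell and neutrophil sums. Of its satellite cell sum of 89 CPM, Cdh15 alone gave 64.9, against a young maximum of 20.6 for that gene. The sum therefore follows Cdh15 and not the satellite cell markers as a set. In bulk tissue, fewer cells of a type and less RNA per cell cannot be told apart.

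In young muscle the order of the genes by mean TPM began with Timp2 (33.8 ± 10.9), Mmp2 (28.1 ± 12) and Timp3 (24.9 ± 7.1), whose libraries overlapped. Timp4 (11.9 ± 1.88) and Adamts1 (11.8 ± 6.27) came next, followed by Mmp14 (6.80 ± 2.29). Every young library had Timp3 above every young value of Timp4, while the ranges of Timp4 and Adamts1 and those of Adamts1 and Mmp14 overlapped. Adamts5 (1.49 ± 0.67), Timp1 (0.993 ± 0.445) and Mmp3 (0.233 ± 0.0666) were the lowest. In aged muscle Timp4 led, with 25.1 ± 6.69 TPM in the aged vehicle and 37.0 ± 18.1 in the aged GW8510 group. Timp3 followed at 22 ± 7.02 and 30.8 ± 9.33, then Timp2 at 15.2 ± 4.85 and 16.8 ± 7.56, and Mmp2 at 8.87 ± 5.79 and 9.16 ± 5.29. Neighbouring genes among these 4 overlapped in both aged groups. Adamts1 (3.87 ± 0.466 and 4.59 ± 1.98 TPM), Mmp14 (2.76 ± 0.647 and 2.55 ± 1.23) and Adamts5 (0.91 ± 0.279 and 1.02 ± 0.085) kept their order among themselves in all 3 groups. Timp1 had a mean of 2.46 ± 1.80 TPM in aged vehicle muscle and 0.66 ± 0.165 with GW8510, and Mmp3 was the lowest in both aged groups, at 0.31 ± 0.347 and 0.05 ± 0.0624.

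**Figure D1:**
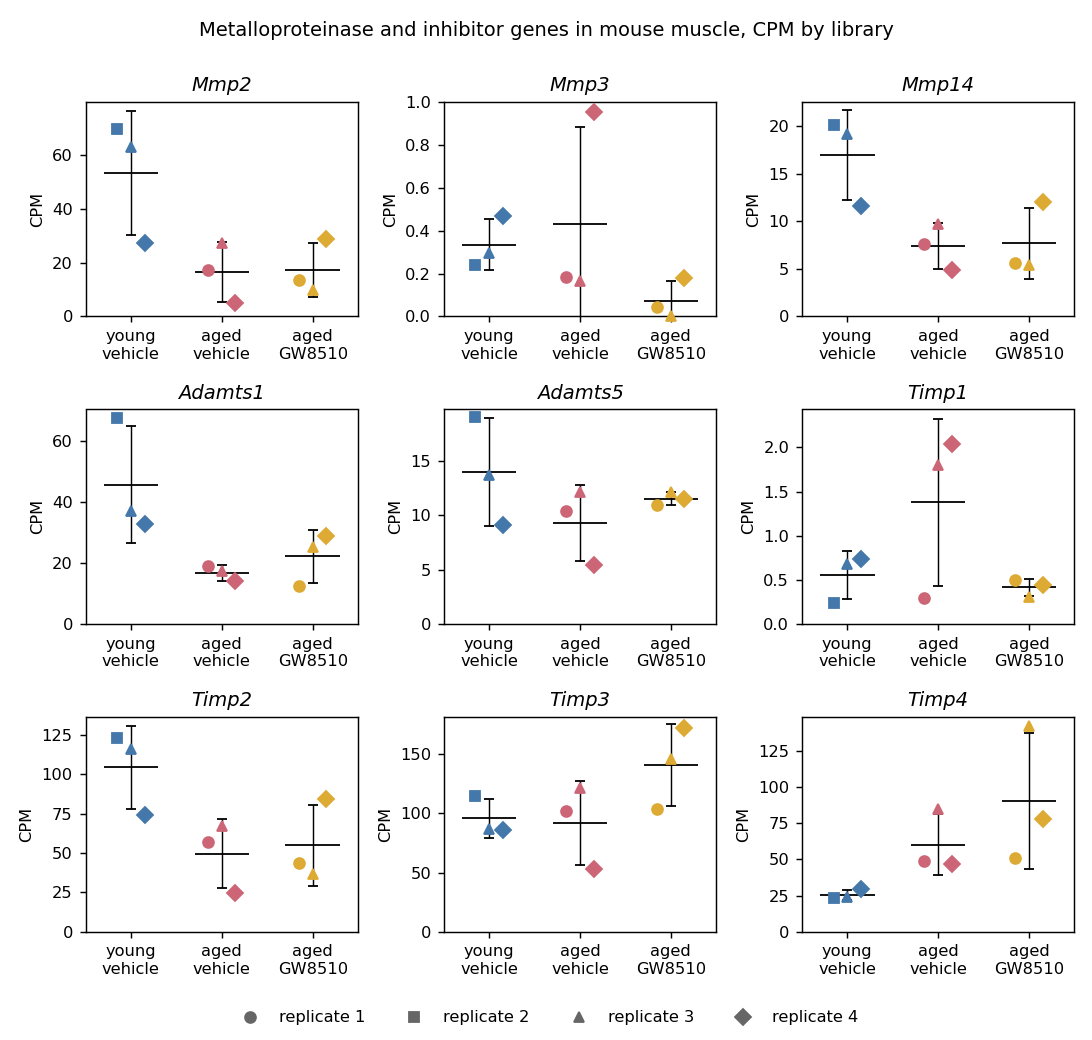
CPM of the 9 genes in each library by group, with marker shapes for the replicate number, horizontal lines for group means and bars for 1 SD (n = 3); each panel has its own linear axis from 0. All 6 aged libraries lie below the young libraries for Adamts1 and above them for Timp4, while young and aged libraries overlap for the other 7 genes.

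The first comparison asked how the genes differ between aged and young muscle. When each aged group was set against young muscle on its own, none of the 8 tested genes passed an adjusted p of 0.05 (edgeR quasi-likelihood test, Benjamini-Hochberg), where 1.22% of all genes tested passed for aged vehicle and 0.751% for aged GW8510. An unadjusted p under 0.05 was reached by 5 of 8 in both, against 19.2% and 16.7% of all genes. With the mean of both aged groups set against young, 6 libraries against 3, 2 of the 8 passed, against 3.66% of all genes. Adamts1 fell and Timp4 rose. Of all genes, 2.33% passed as lower and 1.33% as higher in that comparison. The median log2 fold change of the 8 genes was -0.83 for aged vehicle, -0.66 for aged GW8510 and -0.72 for both, where the median over all genes was 0.01 in each. These 3 comparisons share the young libraries, and the third holds the aged libraries of both others, so they are not independent.

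Among the proteinases, Mmp2 had 69.7, 62.9 and 27.1 CPM in young vehicle 2, 3 and 4. It had 17.2, 27.2 and 4.89 CPM in aged vehicle 1, 3 and 4, and 13.4, 9.83 and 28.7 in aged GW8510 1, 3 and 4. Young vehicle 4 stood well below the other young libraries and lay among the highest aged ones, so that the groups overlapped. The log2 fold change of the aged mean over young was -1.66 (SE 0.49), a 3.16-fold lower level, and did not pass (edgeR quasi-likelihood, adjusted p = 0.0946), though it did with no filter on low counts (adjusted p = 0.0105). It was the largest difference in size among the 8 genes and also the one with the second largest SE.

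Mmp14, the membrane-anchored activator of the MMP2 precursor, had 20.2, 19.2 and 11.6 CPM in young muscle. Its levels were 7.6, 9.69 and 4.89 CPM in aged vehicle and 5.67, 5.45 and 12 CPM in aged GW8510 libraries. All aged vehicle libraries lay below all young ones, and aged GW8510 4 was just above young vehicle 4. In aged vehicle over young, 13.5% of all genes were lower without overlap and 12.7% higher. The aged mean was lower by -1.17 on the log2 scale (SE 0.30), which did not pass (edgeR quasi-likelihood, adjusted p = 0.0648). Mmp14 passed with no filter on low counts (adjusted p = 0.00983), with DESeq2 (0.00793), with limma-voom (0.0493) and in edgeR without aged GW8510 4 (0.0226).

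Mmp3 was at the edge of detection, with 7, 7 and 12 counts in young, 5, 4 and 22 in aged vehicle and 1, 0 and 4 in aged GW8510 libraries. Aged vehicle 4 had the highest level, 0.953 CPM, and the other 8 libraries had 0.468 CPM or less. The library with no count, aged GW8510 3, allows up to 0.133 CPM. Mmp3 was not tested, and no fold change is given.

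Adamts1 had 67.5, 36.9 and 32.7 CPM in young muscle, 19.0, 17.4 and 14.0 in aged vehicle and 12.5, 25.3 and 29.0 in aged GW8510 libraries. All 6 aged libraries were below all young ones, although aged GW8510 4 and young vehicle 4 were close. Against young, the log2 fold change was -1.44 (SE 0.35, edgeR adjusted p = 0.081) for aged vehicle and -1.04 (SE 0.34, adjusted p = 0.169) for aged GW8510, the first of which passed with DESeq2 (adjusted p = 0.00243). For both aged groups together Adamts1 was 2.36-fold lower, a log2 fold change of -1.24 (SE 0.29, edgeR adjusted p = 0.045). Groups without overlap made up 7.9% of all genes as lower and 6.61% as higher in this comparison. The call was lost with limma-voom (adjusted p = 0.0522) and when any library other than aged GW8510 4 was left out (adjusted p 0.042 to 0.204 over the 9 fits), and without young vehicle 2, the highest library, the log2 fold change was -0.86 (adjusted p = 0.204).

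Adamts5, the neighbour of Adamts1 on chromosome 16, had 19.0, 13.7 and 9.13 CPM in young, 10.4, 12.1 and 5.41 in aged vehicle and 10.9, 12.1 and 11.5 in aged GW8510 libraries. The groups overlapped throughout, and the 3 GW8510 libraries were nearly level, with an SD of 0.619 around a mean of 11.5 CPM. The aged mean over young was -0.44 on the log2 scale (SE 0.27, edgeR quasi-likelihood, adjusted p = 0.371). The ratio of Adamts1 to Adamts5 in TPM was 6.65 to 8.53 in young libraries and 2.62 to 5.88 in aged ones, with no overlap. This ratio is a description and was not tested.

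Among the inhibitors, Timp2, the adaptor of MMP14, had 123, 116 and 74.1 CPM in young muscle. It had 56.7, 67.0 and 24.9 CPM in aged vehicle and 43.6, 36.8 and 84.0 CPM in aged GW8510 libraries. As for Mmp14 and 13.5% of all genes, the aged vehicle libraries were all below the young ones, and aged GW8510 4 alone reached into the young range. The aged mean over young was -1 (SE 0.34) on the log2 scale and did not pass (edgeR quasi-likelihood, adjusted p = 0.128); it did with DESeq2 (adjusted p = 0.041) and with no filter on low counts (0.0356).

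Timp3, a TIMP that binds to the matrix and inhibits ADAMTS proteinases as well, had 115, 86.5 and 85.7 CPM in young, 102, 121 and 52.6 in aged vehicle and 104, 146 and 172 in aged GW8510 libraries. Aged vehicle 4 was the lowest library and aged GW8510 4 the highest, and all groups overlapped. The log2 fold change over young was -0.06 (SE 0.30) for aged vehicle and 0.55 (SE 0.30) for aged GW8510, with edgeR adjusted p of 0.935 and 0.388. The small aged vehicle value turned positive, to 0.09 without young vehicle 2 and 0.22 without aged vehicle 4.

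Timp4, a TIMP known for its expression in heart and muscle, had 23.2, 24.0 and 29.3 CPM in young muscle, within a narrow range. It had 49.1, 84.4 and 46.6 CPM in aged vehicle and 51.0, 142 and 77.8 CPM in aged GW8510 libraries. The lowest aged library was 46.6 CPM and the highest young one 29.3, so no library overlapped, and the aged libraries were far more spread than the young ones. Against young, the log2 fold change was 1.24 (SE 0.36, edgeR adjusted p = 0.122) for aged vehicle and 1.82 (SE 0.36, adjusted p = 0.0563) for aged GW8510; both passed with DESeq2 (adjusted p = 0.0159 and 5.49e-05). For both aged groups together Timp4 rose 2.89-fold, a log2 fold change of 1.53 (SE 0.33, edgeR adjusted p = 0.0348). The call was lost without young vehicle 2 (adjusted p = 0.146), 3 (0.151) or 4 (0.101) and without aged vehicle 1 (0.0519), and the log2 fold change stayed between 1.29 and 1.67 in all 9 such fits.

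Timp1, an inducible TIMP whose gene answers inflammation and injury, was low, at 0.239, 0.677 and 0.741 CPM in young muscle. It had 0.291, 1.80 and 2.04 CPM in aged vehicle and 0.499, 0.310 and 0.445 CPM in aged GW8510 libraries. Aged vehicle 3 and 4 stood above all other libraries, with 44 and 47 counts, and aged vehicle 1, with 8 counts, lay among the young ones. The aged mean over young was 0.46 on the log2 scale (SE 0.61, edgeR quasi-likelihood, adjusted p = 0.692). Summed neutrophil markers were 20.3 CPM in aged vehicle 4, the highest library for these markers and for Timp1, and 0.45 in aged vehicle 3. They were 5.31 and 0.886 CPM in aged GW8510 1 and 3, and 0.0423 to 0.078 in young libraries. None of these markers passed the filter on low counts, and a part of neutrophil RNA in Timp1 was not tested.

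**Figure D2:**
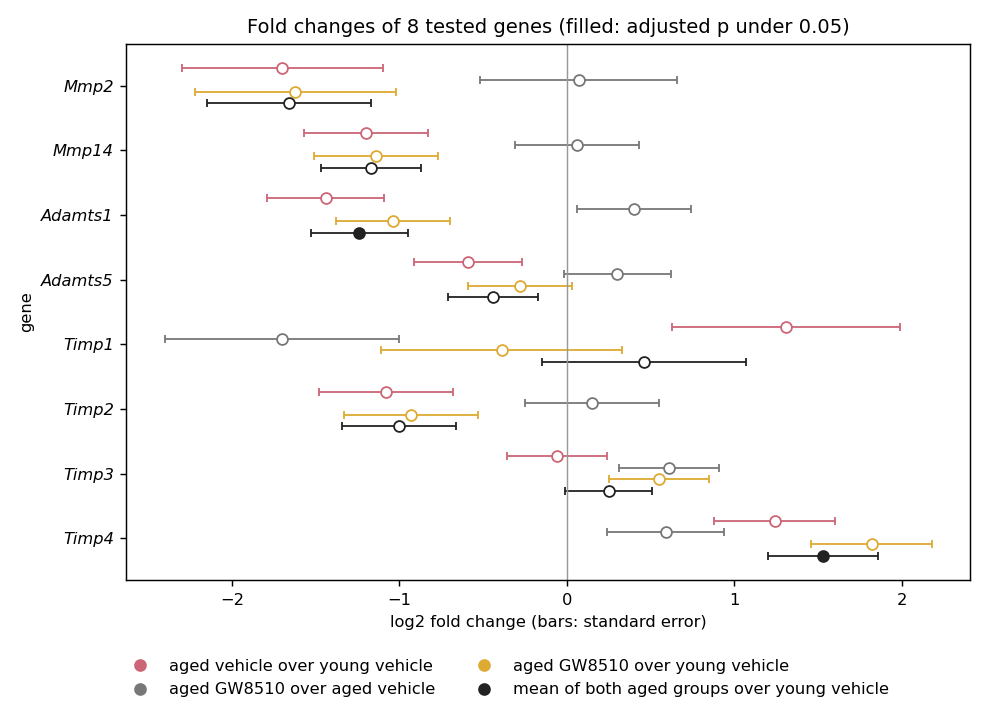
Log2 fold change (horizontal axis, bars 1 standard error) of the 8 tested genes in the 4 comparisons, from 1 edgeR fit of 9 libraries; filled points passed an adjusted p of 0.05. Adamts1 at -1.24 and Timp4 at 1.53 are the filled points, both for the mean of both aged groups over young, and the grey points for GW8510 over aged vehicle lie between -1.70 for Timp1 and 0.61 for Timp3.

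With Timp2 and Timp4 differing in opposite directions, the make-up of the TIMP transcript pool was examined. In TPM, Timp2 made up 49.0%, 52.4% and 38.5% of the 4 TIMPs in young vehicle 2, 3 and 4, and Timp4 13.6%, 14.7% and 23.6%. In aged libraries Timp2 made up 11% to 27.0% and Timp4 32.4% to 56.9%. Timp4 exceeded Timp2 in all 6 aged libraries, by a ratio of 1.22 to 5.18, and in none of the young ones, where the ratio was 0.278 to 0.613. Timp3 held a like share in all groups, 31.0% to 36.9% in young and 28.8% to 39.6% in aged libraries. The summed TIMP level overlapped between groups, at 57.8 to 89.7 TPM in young, 48.6 to 81.4 in aged vehicle and 55.4 to 106 in aged GW8510 libraries.

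The 3 metalloproteinases summed to 19.8 to 47.9 TPM in young, 5.52 to 17.7 in aged vehicle and 7.30 to 19.3 in aged GW8510 libraries. The ratio of summed TIMP to summed MMP transcripts was 1.87, 1.79 and 2.92 in young vehicle 2, 3 and 4. It was 5.10, 4.6 and 8.80 in aged vehicle and 6.39, 13 and 5.47 in aged GW8510 libraries. Every aged library was above every young one, and both aged groups overlapped. Of the mean MMP sum, Mmp2 made up 28.1 of 35.1 TPM in young, 8.87 of 11.9 in aged vehicle and 9.16 of 11.8 in aged GW8510 muscle. The divisor of the ratio is therefore mostly Mmp2, which did not pass, while the TIMP sum overlapped between groups. The ratio of Mmp2 to Mmp14 overlapped between young (3.45 to 4.36) and aged libraries (1.33 to 4.27), with the lowest value in aged vehicle 4. These ratios combine genes of different cell types, are ratios of transcripts and not of protein or activity, and carry no test.

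**Figure D3:**
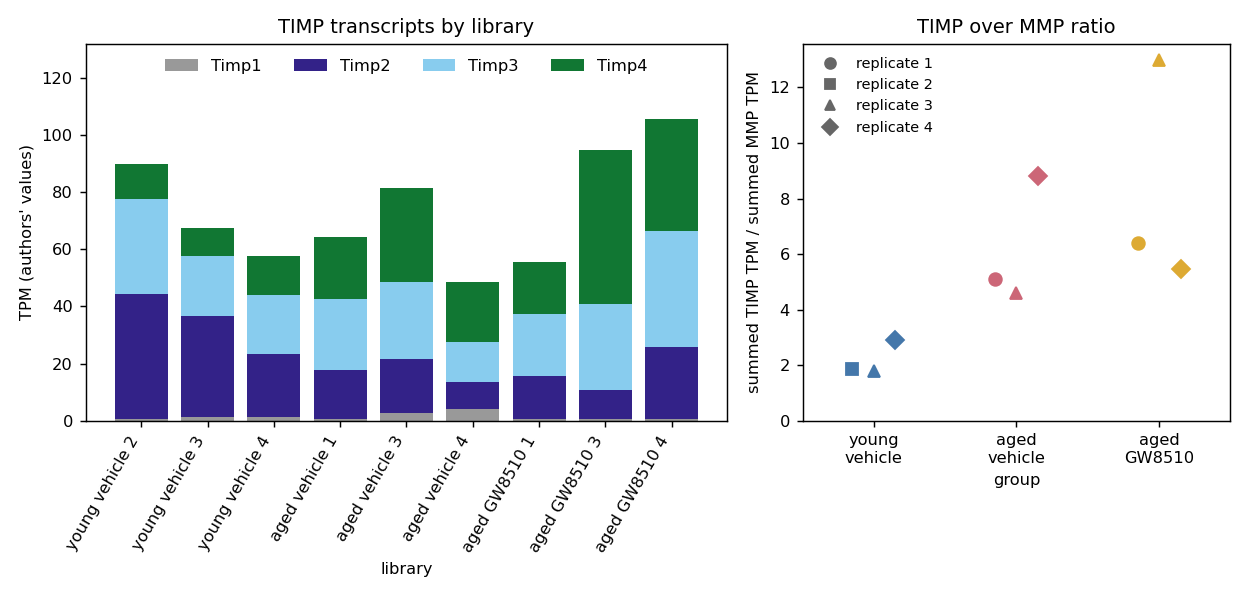
Left, TPM of the 4 TIMP genes stacked for each library; right, the ratio of summed TIMP to summed MMP (Mmp2, Mmp3, Mmp14) TPM by library and group, with marker shapes for the replicate number. Timp4 takes 13.6% to 23.6% of the young bars and 32.4% to 56.9% of the aged ones, and the ratio lies between 1.79 and 2.92 in young and between 4.6 and 13 in aged libraries.

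The second comparison asked whether GW8510 altered these genes in aged muscle. None of the 8 genes passed (edgeR quasi-likelihood, Benjamini-Hochberg), and 0% of all 14384 genes did, with the smallest adjusted p at 0.79. An unadjusted p under 0.05 was reached by 1 of the 8, Timp1, and by 4.5% of all genes; DESeq2 and limma-voom called none of the 8. Libraries of both aged groups overlapped for all 8 genes, while 7.22% of all genes had groups without overlap (3.89% higher and 3.33% lower with GW8510). Timp1 was 3.25-fold lower with GW8510, a log2 fold change of -1.70 with a 95% interval of -3.26 to -0.13 and an adjusted p of 0.934 (edgeR quasi-likelihood). Its counts in the GW8510 libraries were 7 to 11, close to the 8 of aged vehicle 1.

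For the others the intervals included 0 and were wide. The log2 fold change was 0.61 for Timp3 (95% interval -0.06 to 1.28), 0.59 for Timp4 (-0.20 to 1.38), 0.40 for Adamts1 (-0.36 to 1.17) and 0.30 for Adamts5 (-0.40 to 1.01). Timp4 was highest in aged GW8510 3, and without that library its difference fell to 0.10. Mmp2 (0.07, -1.25 to 1.40), Mmp14 (0.06, -0.76 to 0.88) and Timp2 (0.15, -0.75 to 1.04) had values near 0, with intervals too wide to show that treatment left them alike. The sign of these 3 turned without aged vehicle 4, to -0.36, -0.17 and -0.18, and without aged GW8510 4, to -0.51, -0.42 and -0.31.

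Fibroblast markers were set beside these genes. All 11 fibroblast markers were tested, with a median log2 fold change of -1.30 for the aged mean over young. Cd34 and Col15a1, 2 of 11, fell and none rose, against 2.33% of all genes as lower. Libraries were lower without overlap for 3 of 11, against 7.9% of all genes. The other 8 of 11 overlapped between young and aged libraries, among them Ly6a (-0.05, SE 0.23). The count of 2 was 0 without any 1 of the young libraries, aged vehicle 1 or aged GW8510 1 or 3. Each gene was therefore also expressed as a percent of the summed fibroblast marker CPM of its own library, of which Gsn made up 34.2% to 58.2% and Dcn 22% to 26.9%. Mmp14 was 0.873% to 1.31% of that sum in young and 0.924% to 2.27% in aged libraries, Timp2 5.29% to 8.36% and 6.24% to 11.6%, and Adamts1 2.24% to 3.68% and 1.87% to 6.51%. These 3 genes overlapped between young and aged libraries on this scale, and the highest value of each was in aged vehicle 4, which had the lowest marker sum.

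Mmp2 was 3.01% to 3.82% of the fibroblast sum in young and 1.67% to 2.92% in aged libraries, without overlap. With Gsn left out of the sum the ranges overlapped, at 6.12% to 7.75% and 2.89% to 6.22%. Timp4 was 1% to 3.30% in young and 6.23% to 24.1% in aged libraries, and Timp3 4.96% to 9.67% and 12.9% to 24.7%. Without Gsn the ranges remained apart, at 2.40% to 6.60% and 14.1% to 41.7% for Timp4 and at 10.7% to 19.3% and 27.8% to 42.9% for Timp3. In CPM, Timp3 overlapped between young and aged libraries (aged mean over young 0.25, SE 0.26, edgeR quasi-likelihood, adjusted p = 0.612). A gene that keeps its level rises as a percent where the marker sum falls. The percent, with or without Gsn, therefore does not separate a change of Timp3 from a change of the sum. The part of fibroblast RNA in the differences with age was not tested. Adipocyte markers summed to 16.0 to 42.1 CPM in young and 3.50 to 131 CPM in aged libraries and overlapped, and endothelial markers summed to 444 to 540 and 304 to 637 CPM.

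**Figure D4:**
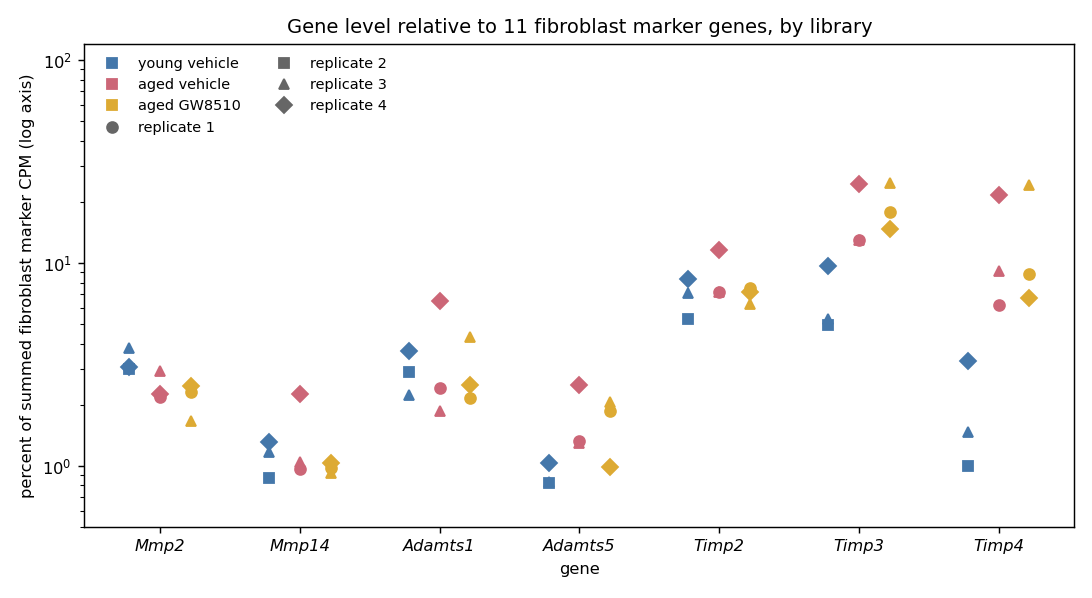
Level of 7 genes as a percent of the summed CPM of 11 fibroblast marker genes in the same library (log axis), by group (colour) and replicate number (shape). Timp3 and Timp4 lie higher in all 6 aged libraries than in the young ones, Mmp2 lies lower, from 1.67% to 2.92% against 3.01% to 3.82%, and the other genes overlap. With Gsn left out of the sum, which is not shown, the Mmp2 ranges overlap. In CPM, young and aged libraries overlap for Timp3.

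The wider families and their partners were examined with lists drawn up with earlier results of these data known. In the comparison of the aged mean over young, 7 of the 12 tested genes among the other ADAMTS genes fell and none rose, against 2.33% of all genes as lower, and their median log2 fold change was -1.31. Adamts2, which trims procollagen, fell from 21.0 ± 5.63 CPM in young to 4.73 ± 2.24 in aged vehicle and 6.04 ± 2.67 in aged GW8510 muscle, a log2 fold change of -1.97 (SE 0.33, edgeR adjusted p = 0.0173). Adamts12 was lower by -2.60 (SE 0.48), the aggrecanase gene Adamts4 by -2.90 (SE 0.54) and Adamts10 by -0.93 (SE 0.18), with edgeR adjusted p of 0.0222, 0.0235 and 0.0255. Adamts4 had 1.53 ± 0.456 CPM in young, 0.386 ± 0.347 in aged vehicle and 0.0443 to 0.136 in aged GW8510 libraries. The last values are near or below the floor of 3 counts, so the size of its fold change is uncertain. The count of 7 became 1 without young vehicle 2, 0 without young vehicle 3, 1 without young vehicle 4, 3 without aged vehicle 1 and 4 without aged GW8510 1 or 3. With aged vehicle alone, where 0.695% of all genes passed as lower, Adamts2 (-2.15, edgeR adjusted p = 0.0445) and Adamts10 (-1.23, 0.0342) fell. With a library left out, Adamts2 passed without aged vehicle 3 or aged GW8510 4 and missed in the other 7 fits (adjusted p up to 0.143). Adamts10 passed without aged GW8510 1 or 4 and missed in the other 7 (up to 0.12).

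Of 20 other Mmp genes, 13 were too low to test. Of the 7 tested Mmp23 alone fell, against 2.33% of all genes as lower. Its log2 fold change was -1.83 (SE 0.38, edgeR adjusted p = 0.032), from 1.21 ± 0.199 CPM in young to 0.233 ± 0.129 and 0.477 ± 0.0624 CPM. It kept the call in 2 of the 9 fits that left out a library, those without aged vehicle 3 and 4, and 2 genes of the list passed without aged vehicle 4. Mmp15, named after its values were seen, did not pass (-0.95, SE 0.25, edgeR adjusted p = 0.0714). It had 33.3 ± 4.82 CPM in young, 16.9 ± 7.32 in aged vehicle and 17.6 ± 2.77 in aged GW8510 muscle. All its aged libraries lay below the young ones, as for 7.9% of all genes. Mmp15 is not part of the MMP sum used above. Among 7 tested ADAMTS-like genes, which lack the proteinase domain, Papln (-2.65, SE 0.51, adjusted p = 0.0256) and Adamtsl2 (-2.40, SE 0.57, adjusted p = 0.049) fell and none rose, against 2.33% of all genes as lower. That count was 0 without any 1 of the young libraries, aged vehicle 1 or aged GW8510 3, and 1 without aged GW8510 1 or 4.

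**Figure D5:**
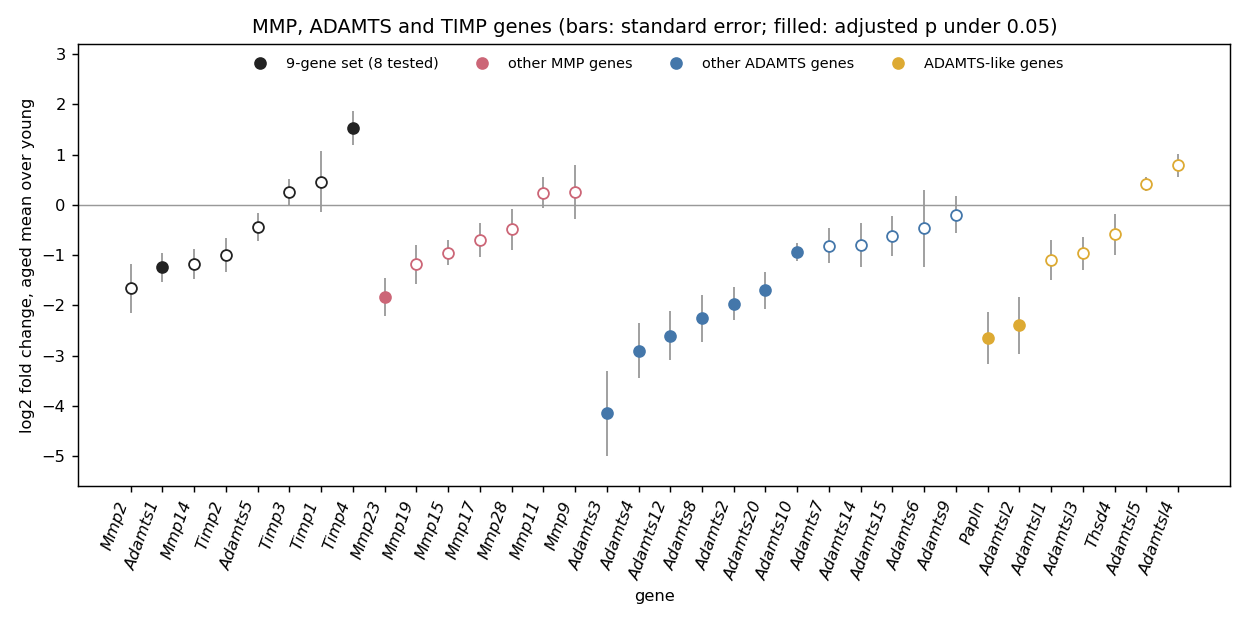
Log2 fold change (bars 1 standard error) of the mean of both aged groups over young for the 8 tested genes described here, 7 other MMP, 12 other ADAMTS and 7 ADAMTS-like genes, each list sorted by value; filled points passed an adjusted p of 0.05 in edgeR. The filled points are all below 0 except Timp4, and 7 of the 12 other ADAMTS genes are filled.

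Genes that activate, clear or otherwise inhibit these proteinases were counted next. Thbs1, a matricellular protein, fell by -3.00 (SE 0.44, edgeR adjusted p = 0.0119) and Pcsk5, a proprotein convertase, by -2.07 (SE 0.42, adjusted p = 0.0294). These were 2 of 10 tested, against 2.33% of all genes as lower, with none higher and a median of -0.96. The count was 0 without young vehicle 3 and 1 without young vehicle 2 or 4, aged vehicle 1 or aged GW8510 1 or 3. In aged vehicle alone Thbs1 fell by -3.13 (adjusted p = 0.0383), a call that held without aged vehicle 3 or aged GW8510 1 or 4 and was lost in the other 6 fits that left out a library (adjusted p up to 0.12). None of the 6 tested genes of the plasminogen system passed, and their median was -0.79; the most abundant were Serpine2 (-0.37, SE 0.20), Plau (-0.61, SE 0.40) and Plgrkt (0.08, SE 0.19). None of the 10 tested ADAM sheddase genes passed either, with a median of -0.56 and with Adam9 (0.17, SE 0.16), Adam15 (0.01, SE 0.22) and Adam10 (-0.24, SE 0.15) the most abundant. The aged libraries lay below the young ones without overlap for Adam12 (-2.45, adjusted p = 0.0849), Adam19 (-1.26, 0.0861) and Adam17 (-0.63, 0.0662), named after their values were seen, where 7.9% of all genes did so.

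Among 16 tested matrix substrates, 7 fell and none rose for the aged mean over young, against 2.33% of all genes as lower, and the median was -1.88 against 0.01 over all genes. Col4a1, a basement membrane collagen, fell by -2.14 (SE 0.34, edgeR adjusted p = 0.0134) and the fibrillar collagen gene Col1a1 by -4.16 (SE 0.68, adjusted p = 0.0153), from 345 ± 192 CPM to 20.5 ± 16.6 and 18.3 ± 14.7 CPM. Hspg2, which encodes perlecan, fell by -1.31 (SE 0.22, adjusted p = 0.0174) and Col1a2 by -3.45 (SE 0.62, adjusted p = 0.0211). The count was 2 without young vehicle 2 or 4, 0 without young vehicle 3, 4 without aged vehicle 1, 3 without aged GW8510 1 or 3, 12 without aged vehicle 3 and 11 without aged GW8510 4. Dcn and Lum stand in this list and among the fibroblast markers. Tendon markers had a median of -3.29 with 3 of 6 tested lower, against 2.33% of all genes, and that count was 0 without any 1 of the young libraries or aged GW8510 1, 1 without aged vehicle 1 or aged GW8510 3, and 1 with DESeq2. They summed to 167 to 351 CPM in young and 39.3 to 102 CPM in aged libraries. Of the 6 tested, 4 were lower without overlap, against 7.9% of all genes, but the list did not move as one. Scx had 4.08 ± 0.57 CPM in young, 4.01 ± 0.52 in aged vehicle and 5.27 ± 1.02 in aged GW8510 muscle. The part of tendon RNA in the matrix and ADAMTS changes was not tested.

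The AP-1 subunits, whose site was among the motifs searched, were counted last. Fosl2 (-1.76, SE 0.23, edgeR adjusted p = 0.00784) and Fosb (-3.87, SE 0.52, adjusted p = 0.00834) fell in the aged mean over young, 2 of 6 tested, against 2.33% of all genes, and both held in all 9 fits that left out a library. All 6 passed without aged vehicle 4. Fos (-2.51, adjusted p = 0.0554), Jund (-0.64, 0.0525), Junb (-0.84, 0.142) and Jun (-0.74, 0.207) did not pass with all libraries, and the libraries of Jun and Junb overlapped. With aged vehicle alone 3 of the 6 passed as lower, against 0.695% of all genes, and 0 to 4 when a library was left out. Jund was the third (-0.91, edgeR adjusted p = 0.0495), a call that held in 1 of the 9 fits, without aged vehicle 3. For aged GW8510 over young, Fosl2 alone of the 6 passed (-1.86, edgeR adjusted p = 0.0225), against 0.417% of all genes as lower. That call held in 5 of the 9 fits that left out a library (adjusted p up to 0.115). For GW8510 over aged vehicle, 0 genes of any of these lists passed.

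The genes whose course over the 9 libraries came nearest to each of the 8 tested ones were found by the root mean square difference of log2 CPM, each gene centred on its own mean, among 11381 genes with at least 1 CPM. Nearest to Mmp2 were Antxr1 (0.21), Pcolce (0.24) and Svep1 (0.25), against a median of 1.19 over all those genes. Mmp14 was nearest to Adam19 (0.14), Dap (0.15) and Thbs2 (0.17), and Timp2 to Thbs2 (0.13), Armcx2 (0.15) and Adam19 (0.16), so that 2 of 3 names were the same. Mmp14 and Timp2 were also the closest pair among the 8 genes themselves, at 0.17, and Mmp2 and Timp4 the farthest apart, at 1.75. Adamts1 was nearest to Klhl13 (0.17), Fat4 (0.20) and Cdk14 (0.21), and Adamts5 to St5 (0.11), Sgce (0.16) and Tnfsf12 (0.16). Timp3 was nearest to Pear1 (0.13), Pfkfb2 (0.14) and Mertk (0.17), and Timp4 to Cds1 (0.14), Rin1 (0.27) and Pparg (0.28). Timp1 had no close match, with Chrna1, an acetylcholine receptor subunit, nearest at 0.51. The libraries share their groups and their cell make-up, so closeness of course is a description.

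The authors' deposited table marked 4 of the 9 genes for aged vehicle over young, with log2 ratios of -1.69 for Mmp2, -1.19 for Mmp14, -1.42 for Adamts1 and 1.24 for Timp4. In the authors' deposited table for aged GW8510 over young, Mmp14 (-1.14), Adamts1 (-1.03) and Timp4 (1.83) were marked; Timp2 (-0.93) was not, although its adjusted p there was 0.0279, so the mark does not follow the adjusted p alone. No gene of the 9 was marked in the authors' deposited table for GW8510 over aged vehicle, where each had an adjusted p of 0.998. The deposited ratios and those of the edgeR fit differed by 0.02 or less on the log2 scale for all 8 tested genes, and the fits differed in which genes passed.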

How the data were processed

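RNA from muscle was sequenced in 9 libraries, and 3 tables were deposited, each for a pair of groups. These hold expected counts per gene (unnormalized, per the file headers), TPM values, log2 ratios and p-values made by the authors. The submitters' processing notes name the tools edgeR, DESeq2, RSEM, StringTie, HISAT2 and CASAVA without versions, and GRCm38; strand use and the annotation are not given in the sources used here. The deposited TPM values were used for levels between genes. The deposited expected counts were rounded, filtered with filterByExpr, scaled by TMM and tested with edgeR 4.0.16 (R 4.3.3) by the quasi-likelihood F test, two-sided, with all 9 libraries in 1 fit, 1 mean per group and Benjamini-Hochberg adjustment over 14384 genes (threshold 0.05). Standard errors were derived from the log2 fold change and its F statistic. The code was tested on simulated data. Log2 CPM for likeness used a prior count of 2.

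The 9 genes, the gene lists and the rules were chosen with earlier results of these data known. From a list, up to 4 genes past the threshold are named, by smallest adjusted p, or else the 3 with the highest CPM. For each of the 9 genes, the 3 nearest in course are named, leaving out clone-style symbols and pseudogenes. Alternatives were RLE factors, no filter, DESeq2 1.42.0, limma-voom (limma 3.58.1), only the 2 groups compared, the replicate number as a block and each library left out. The sum of fibroblast markers without Gsn was added after seeing the data. Of 55536 gene IDs, 55450 were found in GENCODE M21.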

Additional observations from a re-analysis of the deposited data

How the results depend on the processing

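Of the alternative values of the 8 tested genes, 426 kept their direction and side of the threshold, 21 passed where the reported fit did not, 15 no longer passed and 10 changed sign. RLE factors and limma-voom gave counts of genes called within 1.5 times of those reported. The genes called were not all the same, since with limma-voom Adamts1 missed the threshold and Mmp14 passed it for both aged groups over young. For aged vehicle over young, 0 genes passed, against 4 with no filter and 3 with DESeq2. For aged GW8510 over young, 0 passed, against 1 with no filter, 2 with DESeq2, 1 with only the 2 groups compared, and 0 to 1 when a library was left out. For both aged groups over young, 2 passed, against 5 with no filter, 4 with DESeq2 and 0 to 3 when a library was left out. For GW8510 over aged vehicle the count was 0 under every alternative run. Why the filter and the tool change these counts was not tested. With the replicate number as a block, 0 passed for both aged groups over young, Adamts1 had an adjusted p of 0.394 and Timp4 of 0.167. Same-numbered libraries of different groups did not deviate together (correlations over genes -0.21 to 0.14), so the numbers are not taken to pair the samples. Under the block, young vehicle 2 shares its number with no other library and adds no information on age; Timp3 for aged vehicle over young was then 0.12 and Adamts5 for aged GW8510 over young 0.02. Other changes of sign were Timp3 for aged vehicle over young, at 0.09 without young vehicle 2 and 0.22 without aged vehicle 4. When a library was left out, GW8510 over aged vehicle ran from -0.51 to 0.64 for Mmp2, -0.42 to 0.3 for Mmp14 and -0.31 to 0.42 for Timp2. Without aged vehicle 4 Mmp2 was -0.36, Mmp14 -0.17 and Timp2 -0.18, and without aged GW8510 4 they were -0.51, -0.42 and -0.31. A fit of only the compared groups was not run for both aged groups over young, which uses all 9 libraries. With 3 libraries per group, and Mmp3 and Timp1 at 0 to 22 and 7 to 47 counts, small differences were not detectable.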
